A study of Homo sapiens with 9 samples.

Results

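HCN-2 cells that had received a mimic of the microRNA miR-140-3p were compared with HCN-2 cells that had received a scrambled control RNA. The comparison takes up 6 of the 9 arrays of the series, 3 per set, and every row of the deposited table that the platform annotation pairs with exactly 1 gene symbol was included, 36176 of 138745 rows and 33616 genes. The other 3 arrays, of cells given a miR-126-5p mimic, entered the fit only to help estimate the spread and are set beside the miR-140-3p values for a few genes and lists. HCN-2 is an established line from human cerebral cortex, grown here in medium with serum. In both sets 3 μL of a 20 μM RNA was transfected and the RNA of the whole culture was collected 24 h later, so the control cells had also been transfected with a synthetic RNA, and no untransfected cells were analysed here. The arrays are of 1 cell line, and separate cultures are not stated for the 3 arrays of either set. The p-values therefore measure only the spread between these arrays, which may be technical.

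MicroRNAs are short RNAs that guide Argonaute proteins to messenger RNAs. The guiding is done mainly by the seed, bases 2 to 8 of the microRNA, which pairs with sites in the target, and the usual outcome is decay or weaker translation of that messenger. A mimic is a synthetic double-stranded RNA whose guide strand enters Argonaute as the natural microRNA would. Cells also carry sensors for foreign RNA, which switch on type I interferons; these act through a receptor, JAK kinases and STAT and IRF proteins on a large family of antiviral genes, the interferon-stimulated genes.

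The mature sequence of the mimicked microRNA is shown because its seed defines what the mimic could pair with, and that of the other arm of the same hairpin is given for comparison. In the lines below the seed is in capitals. In the RefSeq records on build GRCh38.p14, miR-140-3p lies at chr16:69933142-69933162 on the plus strand, in MIR140 within an intron of WWP2, and is 21 bases long. Of 2545 mature human sequences in that table, 1 has its seed, miR-140-3p itself. Target sites in transcripts were not searched.
miR-140-3p: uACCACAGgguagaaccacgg
miR-140-5p: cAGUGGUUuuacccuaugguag

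All levels below are the deposited log2 values, in which a difference of 1 is a doubling. The array medians over the rows tested lay between 5.61 and 5.74, and 23 background control rows of the chip averaged 3.67 to 3.89 per array, which shows where signal ends. Across rows, correlations were 0.99 to 0.993 within a set and 0.987 to 0.991 between sets. Markers were read for presence only, since levels of different probes cannot be compared. Of 11 measured fibroblast and mesenchymal markers 10 lay above the median row, and the list averaged 12.811 to 13.038 on the miR-140-3p arrays and 12.693 to 12.926 on the control arrays. Of 11 neuron markers 5 did, with SNAP25, NEFL and RBFOX3 below the median row and MAP2 and NEFM bright, and that list averaged 5.920 to 6.237 with miR-140-3p and 6.018 to 6.246 in the control. The array means of both lists overlapped between the sets, and 0 members passed the adjusted p. As the cultures were measured in bulk, fewer cells of a type and less RNA per cell cannot be told apart.

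At the adjusted p, rows lower with miR-140-3p than with the scrambled control far outnumbered higher ones. Here fell and rose mean lower and higher than on the control arrays. Without untransfected cells, a fall with the mimic cannot be told apart from a rise with the scrambled control RNA. At a Benjamini-Hochberg adjusted p under 0.05 over all rows, 83 rows were lower with miR-140-3p than with the scrambled control, 0.229% of the rows. Higher were 3 rows of 3 genes, 0.00829%. By the brightest row of each gene, 81 genes were lower. The remaining lower rows belong to genes whose brightest row did not pass. The 3 miR-140-3p arrays lay below the 3 control arrays in all 81 genes, which their selection by the same arrays largely fixes. Over all rows such a separation was found in 7.48%, and the reverse one in 4.72%. Of the 81 genes, 63 belong to lists of interferon-related genes and 18 to none of those lists. The fall exceeded 2 on the log2 scale in 45 genes and 3 in 24. At the looser thresholds that the study used, an unadjusted p under 0.05 and a log2 difference over 0.32, 1868 rows were lower (5.16%) and 1213 were higher (3.35%). Rows brighter than the median gave 1190 lower and 434 higher at these thresholds, and dimmer rows gave 678 lower and 779 higher, so the excess of lower rows sat among the bright ones. The median difference over all rows was -0.021.

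**Figure D1:**
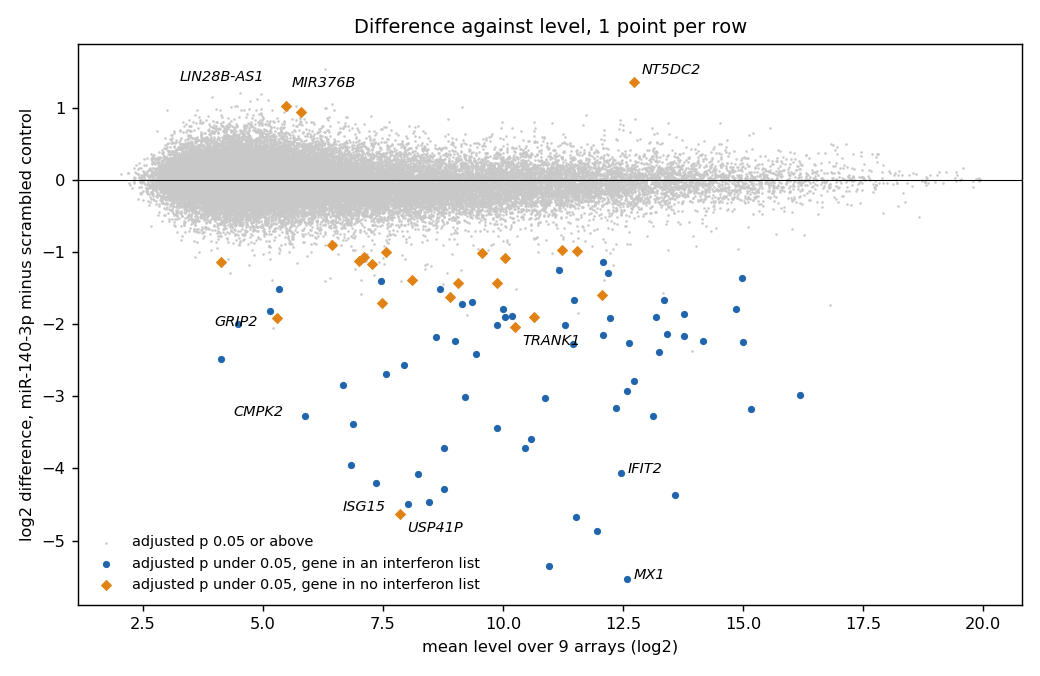
Log2 difference of each row, miR-140-3p minus scrambled control, against its mean log2 level over the 9 arrays, 1 point per row. Blue dots and orange diamonds are rows past the adjusted p whose gene is in an interferon list or in none, and all but 3 of them lie below 0.

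Which arrays carried the difference can be read from the 81 genes that fell. Replicate 1 of the scrambled control was the lowest control array in 73 of them and replicate 3 the highest in 70, while replicate 2 of miR-140-3p was the lowest of its set in 45. The mean level of the 63 interferon-list genes was 9.949, 9.556 and 9.760 on the miR-140-3p arrays, against 12.003, 12.609 and 12.849 on the control arrays. These genes were selected by the same arrays, so the means describe them and test nothing. Without control replicate 3, the brightest for these genes, 45 rows were still lower at the adjusted p, and without control replicate 2 or miR-140-3p replicate 2 or 3 the counts were 47, 47 and 50.

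The deepest falls were in the effectors of the antiviral state. All 4 measured genes of the OAS and RNase L list fell, namely OAS1, OAS2, OAS3 and OASL. The gene of RNase L was not among those measured. The median difference of the 4 was -4.476, against -0.73 over the 204 measured interferon-related genes as a whole. OAS1, an enzyme that senses double-stranded RNA and makes the messenger that activates RNase L, had 10.33, 8.83 and 10.03 on the miR-140-3p arrays, against 14.37, 15.24 and 15.63 on the control arrays. The sets were separated by about 4 units, although OAS1 was among the more variable genes. Its SD was 0.80 with miR-140-3p, 0.64 in the control and 2.08 on the miR-126-5p arrays, which also enter the SE. It fell by 5.35 (SE 0.77, adjusted p = 0.00977 from limma), and this call was lost, with adjusted p of up to 0.138, without miR-140-3p replicate 2 or control replicate 2 or 3, over every row and with an intensity trend. The 4 calls of the list became 1 without miR-140-3p replicate 2 or control replicate 2 or 3, and 2 without miR-140-3p replicate 3. OASL, a relative without that enzyme activity, had 5.60, 5.76 and 5.89 with miR-140-3p and 7.51, 9.85 and 10.06 in the control, so its control arrays were themselves wide apart, and its call was lost without control replicate 2 or 3 or any 1 of the miR-140-3p arrays (adjusted p of up to 0.0876).

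Deepest of all was MX1, a GTPase that traps viral nucleocapsids, with 11.91, 10.63 and 11.33 on the miR-140-3p arrays and 16.45, 16.95 and 17.08 on the control arrays. It fell by 5.54 (SE 0.72, adjusted p = 0.00468 from limma), and the adjusted p was 0.0851 with an intensity trend and robust estimation. IFI44L, an interferon-induced protein of uncertain mechanism, had 11.47, 9.80 and 10.82 with miR-140-3p and 14.94, 16.01 and 15.75 in the control and fell by 4.87, a call lost without control replicate 2 or 3 or any 1 of the miR-140-3p arrays (adjusted p of up to 0.194). In both genes the miR-140-3p arrays were spread by more than 1 unit, replicate 2 being the lowest. Their SDs were 0.64 in MX1 and 0.84 in IFI44L. The miR-126-5p arrays, which also enter the SE, were wider, with SDs of 2.03 and 2.13.

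The IFIT proteins, which bind viral RNA and block its translation, gave 3 falls among 5 measured genes. IFIT2 had 11.02, 11.05 and 11.22 on the miR-140-3p arrays, against 14.61, 15.29 and 15.59 in the control, a difference of -4.07 (SE 0.29, adjusted p = 5.63e-05 from limma). IFIT3 had 14.53, 14.03 and 14.22 with miR-140-3p and 17.21, 17.54 and 17.58 in the control, a difference of -3.18 (adjusted p = 0.00111). Both sets were tight in both genes and did not overlap. IFIT5 was separated as well without passing (difference -1.52, adjusted p = 0.0785), and IFIT1B, a paralog, differed by 0.58 with overlapping sets.

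In the list of MX, IFI and viperin effectors, 16 of 22 measured genes fell, 21 passed the unadjusted thresholds downward and none upward, with a median of -2.437. The 16 became 10 without miR-140-3p replicate 2 or 3 or control replicate 2 or 3. IFI27, a mitochondrial and nuclear membrane protein used as a blood marker of interferon, had 7.22, 6.56 and 6.99 with miR-140-3p and 10.46, 11.17 and 11.37 in the control. CMPK2, a mitochondrial nucleotide kinase, had 4.48, 4.87 and 4.86 with miR-140-3p and 7.52, 7.89 and 8.63 in the control. The lower values of both genes were still above the mean of the background control rows. MX2, which blocks the nuclear entry of some viruses, had 3.65, 3.10 and 3.17 with miR-140-3p, which is at or below that background, and 5.35, 5.89 and 6.14 in the control, so its difference of -2.49 (adjusted p = 0.000359 from limma) is limited by the floor of the signal. IFI27L1 and IFI27L2, neighbours of IFI27, had differences of -0.54 and -0.61 and were not past the adjusted p.

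Of the 6 measured genes of the ISG15 pathway, which attaches the ubiquitin-like protein ISG15 to other proteins, 5 fell. Among the 5, HERC6 passed on 1 of 3 rows (differences of -3.44 to -0.49) and UBE2L6 on 1 of 2 (-1.85 to -0.69). ISG15 itself had 7.03, 6.61 and 6.17 with miR-140-3p, against 10.81, 11.12 and 11.37 in the control. HERC5, the main ligase of this pathway, had 7.18, 7.24 and 7.09 with miR-140-3p, against 10.95, 11.92 and 12.01 in the control, a difference of -4.46 (SE 0.34, adjusted p = 0.000103 from limma). USP18, the protease that takes ISG15 off again and also dampens the interferon receptor, had 6.41, 6.17 and 6.04 with miR-140-3p, against 9.81, 10.56 and 10.85. The pseudogene USP41P, a near copy of USP18 that was not on any interferon list, had 6.80, 5.90 and 6.79 with miR-140-3p and 10.52, 11.31 and 11.56 in the control and fell by 4.63 (SE 0.46, adjusted p = 0.000771). Probes for the 2 copies could detect each other's RNA, so the pseudogene's value is uncertain.

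**Figure D2:**
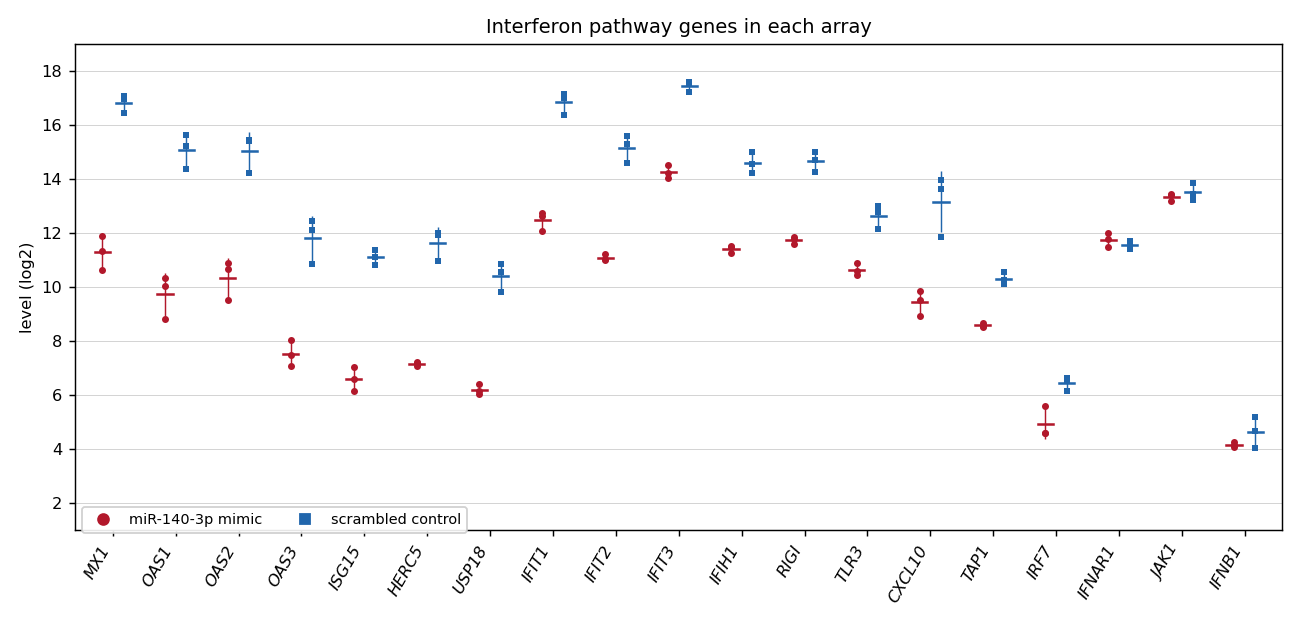
Log2 level of 19 genes of the interferon pathway on each array, with miR-140-3p as red dots on the left and the scrambled control as blue squares on the right of each pair. Bars are means and lines are SDs over 3 arrays; effectors and sensors are separated by set, whereas IFNAR1, JAK1 and IFNB1 overlap.

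Further antiviral families fell in part. Of 11 PARP proteins and antiviral helicases 9 fell (median -1.909), or 5 without control replicate 2 or 3. PARP14, an ADP-ribosyltransferase, had 14.50, 14.06 and 14.36 with miR-140-3p and 16.38, 16.57 and 16.71 in the control, and SAMHD1, which breaks down the nucleotides that retroviruses need, had 12.17, 11.48 and 12.03 with miR-140-3p and 14.32, 14.76 and 14.96 in the control. Both calls held in all 18 moderated alternatives. SAMHD1 was the 1 fall among 8 genes of its list with the APOBEC3 deaminases, whose median was -0.283. Of 7 guanylate-binding proteins 2 fell, GBP4 (difference -3.02) and GBP1 (-1.90), or 4 without control replicate 1, and their calls were among those lost without control replicate 2. BST2, the tetherin that holds budding virions, had 7.28, 6.50 and 6.94 with miR-140-3p and 9.25, 9.46 and 10.07 in the control, while IFITM1 differed by -1.73 without passing (adjusted p = 0.0869). The BST2 call was lost without miR-140-3p replicate 2 or control replicate 2 or 3. Among antiviral TRIM ligases 3 of 9 fell, led by TRIM21 (-1.90), with 0 left without miR-140-3p replicate 3 or control replicate 2 or 3.

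The genes that fell also shared a promoter feature that was not used to pick them. The interferon-stimulated response element is the site for the STAT and IRF complex, and its core was searched as GAAANNGAAA on both strands from 250 bases before to 50 after the start of each gene. Of the 81 genes, 60 have a promoter in the RefSeq table, and 38 of these hold the core, 63.3%, beside 4.38% of all 27305 genes with a promoter there and 3.57% of the 35116 single promoters. Among the interferon-list genes that fell it was 37 of 51, and among those measured but not past the adjusted p 28 of 98. Of 9 genes that fell outside the lists, 1 held it, NMI, which encodes a partner of STAT proteins. The GAS core TTCNNNGAA, the site of STAT dimers, was in 26.7% of the 60 and in 9.38% of all genes. Among the interferon-list genes it was in 29.4% of those that fell and in 23.5% of those not past the adjusted p, so it hardly set the falls apart. These are matches of letters, not sites shown to be bound.

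The 200 bases before the start of 4 of these genes are printed to show the element, with each match in capitals (a TTTC form is the element on the other strand). They are ISG15 at chr1:1013297-1013496 and HERC5 at chr4:88456919-88457118, IFIT1 at chr10:89392423-89392622, all on the plus strand, and NMI at chr2:151289669-151289868 on the minus strand, in GRCh38.p14. Overlapping matches run together: those of ISG15 begin 113 and 107 bases before the start and those of HERC5 at 125, 119 and 74.
ISG15: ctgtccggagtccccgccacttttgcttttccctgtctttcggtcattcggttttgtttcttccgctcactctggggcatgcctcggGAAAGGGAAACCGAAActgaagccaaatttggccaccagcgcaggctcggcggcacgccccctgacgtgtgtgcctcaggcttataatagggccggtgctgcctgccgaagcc
IFIT1: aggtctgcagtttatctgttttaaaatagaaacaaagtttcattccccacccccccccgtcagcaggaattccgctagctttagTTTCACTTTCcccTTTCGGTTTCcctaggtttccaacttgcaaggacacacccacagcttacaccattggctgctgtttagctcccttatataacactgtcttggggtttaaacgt
HERC5: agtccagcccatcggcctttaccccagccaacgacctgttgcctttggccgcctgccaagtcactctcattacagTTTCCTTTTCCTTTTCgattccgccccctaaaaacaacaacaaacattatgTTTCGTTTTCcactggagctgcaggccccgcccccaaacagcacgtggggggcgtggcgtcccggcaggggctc
NMI: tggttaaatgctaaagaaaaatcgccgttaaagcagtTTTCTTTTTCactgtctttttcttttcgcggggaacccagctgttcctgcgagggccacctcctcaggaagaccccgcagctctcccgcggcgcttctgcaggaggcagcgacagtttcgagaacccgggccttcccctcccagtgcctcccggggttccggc

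Sensors of foreign RNA fell, and several of their adaptors gave no call. Of 21 measured sensors and adaptors, 7 fell. IFIH1, the sensor MDA5 of long double-stranded RNA, had 11.50, 11.27 and 11.52 on the miR-140-3p arrays and 14.22, 14.55 and 15.01 in the control, a difference of -3.16 (SE 0.32, adjusted p = 0.000888 from limma). TLR3, the endosomal sensor, had 10.88, 10.46 and 10.58 with miR-140-3p and 12.14, 12.78 and 13.02 in the control. Both sensors are themselves interferon-stimulated genes, and their sets did not overlap. RIGI, the sensor of short RNA with a 5′ triphosphate, fell by 2.92 (adjusted p = 0.00129). MAVS, the adaptor on which RIGI and IFIH1 signal, differed by 0.26, the kinase TBK1 by 0.01, TRAF3 by 0.08 and the DNA sensor CGAS by 0.17, none of them past any threshold. The rows of DDX60L disagree: it fell by 3.03 on its brighter row, its other row differed by 0.5, and the average of its rows did not pass (adjusted p = 0.125).

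Higher up the pathway, the ligands, receptors and kinases showed no call. None of 18 measured receptors, kinases and brakes passed the adjusted p, and the median of that list was -0.001. The receptor chain IFNAR1 had 12.01, 11.47 and 11.78 with miR-140-3p and 11.42, 11.59 and 11.71 in the control, and the kinase JAK1 had 13.45, 13.18 and 13.41 with miR-140-3p and 13.85, 13.21 and 13.46. Both pairs of sets overlap. PTPN2, a phosphatase that restrains STAT signalling, was the only member past the unadjusted thresholds (difference -0.47, adjusted p = 0.477 from limma), and the average of its rows turned the sign, to 0.27. Of 12 ligands 2 lay above the median row, and 1 was lower and 1 higher at the unadjusted thresholds. IFNB1 had 4.08, 4.26 and 4.14 with miR-140-3p and 4.66, 4.03 and 5.18 in the control, close to the background rows. At these levels a change of a ligand would be hard to detect.

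Between receptor and effectors, the transcription factors gave 1 fall. IRF7, the master factor of interferon-alpha genes, had 5.60, 4.61 and 4.62 with miR-140-3p and 6.15, 6.64 and 6.54 in the control and fell by 1.51 (SE 0.25, adjusted p = 0.0254 from limma); this call was lost under 9 of the 17 alternatives that tested this row, with adjusted p of up to 0.155. IRF9, the DNA-binding subunit of the complex, had 13.64, 12.71 and 13.04 with miR-140-3p and 14.33, 14.84 and 14.92 in the control (difference -1.57, SE 0.33, adjusted p = 0.123). IRF1 averaged 10.37 with miR-140-3p and 11.37 in the control (adjusted p = 0.157), and its sets and those of ETV7 (difference -1.58) and BATF2 (-1.09) were separated. IRF3 differed by -0.20, STAT3 by 0.04 and STAT6 by -0.15. Over the 15 measured members the median was -0.195, with 5 lower at the unadjusted thresholds, and the 1 fall became 3 without control replicate 1.

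Antigen presentation gave calls in the loading machinery. Of 13 measured genes of the immunoproteasome and peptide loading list, 4 fell and 10 were lower at the unadjusted thresholds (median -0.661). TAP1, a subunit of the peptide transporter of the endoplasmic reticulum, had 8.67, 8.58 and 8.54 with miR-140-3p and 10.11, 10.28 and 10.57 in the control, a difference of -1.72 (SE 0.20, adjusted p = 0.00217 from limma), and its partner TAP2 fell by 2.02. PSMB8, a catalytic subunit of the immunoproteasome, averaged 10.83 with miR-140-3p and 12.08 in the control and fell (adjusted p = 0.00932), a call lost without miR-140-3p replicate 2 or control replicate 3 (adjusted p of up to 0.0686). Among 28 subunits of the constitutive proteasome 0 passed and the median was -0.059. No MHC class I gene passed the adjusted p. HLA-E had 12.60, 12.16 and 12.25 with miR-140-3p and 13.05, 12.96 and 13.64 in the control (difference -0.88, adjusted p = 0.212), and B2M, the shared light chain, differed by -0.36 (adjusted p = 0.546). NLRC5, the activator of these genes, averaged 5.13 with miR-140-3p and 6.13 in the control (adjusted p = 0.0645). Of the 9 measured members, 6 were lower at the unadjusted thresholds, or 3 without miR-140-3p replicate 2 or without control replicate 3. HLA genes are near copies of each other, so how their signals divide is uncertain.

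Cytokines and surface ligands of the response gave 4 falls. Of 14 interferon-induced chemokines and cytokines, 4 fell and 13 were lower at the unadjusted thresholds, with a median of -1.076, and the 4 became 7 without control replicate 1. CXCL10, the chemokine that draws activated T cells, had 8.94, 9.53 and 9.84 with miR-140-3p and 11.87, 13.64 and 13.96 in the control, a difference of -3.72 (SE 0.47, adjusted p = 0.00391 from limma). CD274, the checkpoint ligand PD-L1, had 7.02, 7.03 and 6.88 with miR-140-3p and 8.15, 8.35 and 8.63 in the control and fell (2.64-fold lower, adjusted p = 0.00678, or 0.0505 without control replicate 3). TNFSF10, the death ligand TRAIL, had 3.59, 3.60 and 4.21 with miR-140-3p, at the background, and 5.12, 5.73 and 6.53 in the control, and its call was lost without miR-140-3p replicate 1 or 2 or control replicate 2 (adjusted p of up to 0.084). CCL7, a monocyte chemokine, had 5.75, 6.42 and 5.78 with miR-140-3p and 5.85, 6.31 and 5.79 in the control, with overlapping sets. In the complement list none of 12 genes passed, with the proteases C1R (-0.91) and C1S (-0.83), the inhibitor SERPING1 (-0.91) and CFB (-0.77) lower at the unadjusted thresholds and C3 at -0.14.

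Outside the interferon lists, 18 genes fell. The lists are not complete, and USP41P and GBP1P1 are copies of the listed genes USP18 and GBP1. Absence from a list therefore does not place a gene outside the interferon response, and whether interferon induces these genes was not tested. USP41P led, and the median of the 18 was -1.41, against -2.38 for the 63 in the lists. TRANK1, a large protein of unsettled function named for its repeats, had 9.87, 9.51 and 9.94 with miR-140-3p and 11.77, 11.66 and 11.99 in the control. It fell by 2.03 (SE 0.19, adjusted p = 0.00056 from limma) and kept its call in all 18 alternatives that moderate the variance (adjusted p of at most 0.00612). PPM1K, the mitochondrial phosphatase that switches on the breakdown of branched-chain amino acids, had 8.44, 8.30 and 8.46 with miR-140-3p, against 9.86, 9.89 and 10.34. This gene fell by 1.63 (SE 0.18, adjusted p = 0.00148), with the same stability. NMI, which binds STAT and MYC proteins, had 10.03, 9.84 and 10.21 with miR-140-3p and 11.29, 12.13 and 12.37 in the control, a difference of -1.90 whose adjusted p was 0.00572, or 0.0525 without control replicate 2.

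CASP1 and CARD16, both on chromosome 11, are of the inflammatory caspase group. CASP1, the protease of the inflammasome that activates interleukin-1 beta, had 7.02, 6.69 and 6.73 with miR-140-3p and 8.18, 8.63 and 8.76 in the control, a difference of -1.71 (SE 0.22, adjusted p = 0.00388 from limma). CARD16, a short relative that holds CASP1 in check, had 7.27, 7.74 and 7.70 with miR-140-3p and 8.97, 8.77 and 9.14 in the control, a difference of -1.39 (adjusted p = 0.00667, or 0.0505 without control replicate 3). The sets of neither gene overlapped, and the 2 genes are similar in sequence. Among the 15 measured genes of the inflammasome, pyroptosis and necroptosis list they were the 2 that fell. At the unadjusted thresholds 4 were lower and none was higher, against 5.16% and 3.35% of all rows.

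The remaining falls were of mixed function. GRIP2, a scaffold of glutamate receptors, had 4.94, 4.48 and 4.70 with miR-140-3p and 5.94, 6.71 and 7.23 in the control. Its miR-140-3p values lay below the array medians and its control values above them. CMTR1, which methylates the cap of messenger RNA, had 8.88, 8.70 and 8.62 with miR-140-3p and 9.98, 10.02 and 10.51 in the control. ZCCHC2, a zinc-knuckle protein, had 9.82, 9.32 and 9.48 with miR-140-3p and 10.80, 10.89 and 11.23 in the control. The sets of these 3 genes did not overlap, and each lost its call under 5 of the alternatives, namely when all rows of the table were tested and without miR-140-3p replicate 2 or 3 or control replicate 2 or 3. TMEM62, a membrane protein of little known role, fell by 1.08, PLAAT4, a phospholipase that acts against growth, by 1.01, and GBP1P1, a pseudogene of the guanylate-binding protein GBP1, by 1.59, with calls lost under 6, 7 and 6 of the alternatives, among them without miR-140-3p replicate 2 or 3 and without control replicate 2 or 3. The pseudogene shares sequence with GBP1, so it is uncertain which RNA its row measured.

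Among the falls nearer the threshold was MASTL, a kinase needed for entry into mitosis, which had 6.78, 6.56 and 6.39 with miR-140-3p and 7.43, 7.75 and 7.76 in the control and fell by 1.07 (adjusted p = 0.0367 from limma). DSP, the desmosomal protein desmoplakin, had 11.52, 11.17 and 11.07 with miR-140-3p and 12.06, 12.28 and 12.36 in the control, a difference of -0.98 (adjusted p = 0.0474). ACSL5, which activates fatty acids for mitochondria, had 6.07, 6.13 and 6.07 with miR-140-3p, against 7.13, 6.88 and 6.96, a difference of -0.90 (adjusted p = 0.0474). Their sets were separated, but the calls of MASTL, DSP and ACSL5 were lost under 10, 10 and 16 of the 18 alternatives, with adjusted p of up to 0.194, 0.241 and 0.211. The small RNA pseudogenes RNU6-436P and RN7SL834P and the pseudogene ANO7L1, with differences of -1.13, -0.97 and -1.13, were similarly near the threshold.

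**Figure D3:**
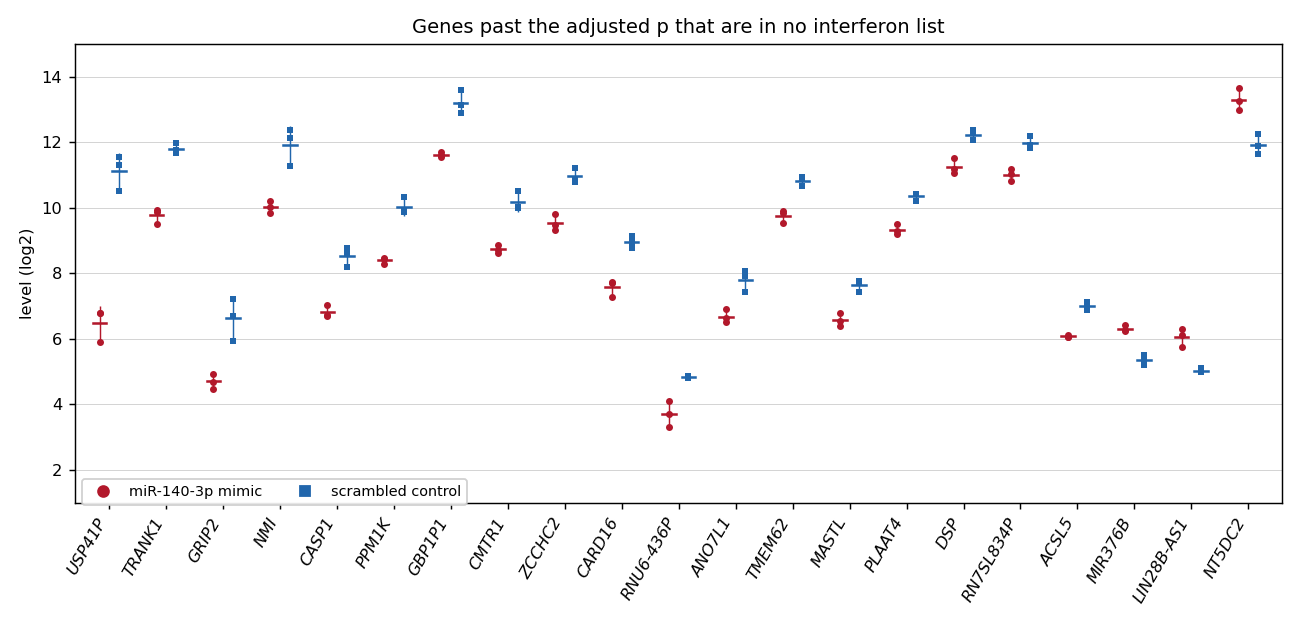
Log2 level on each array of the 21 genes past the adjusted p that are in no interferon list, with miR-140-3p as red dots on the left and the scrambled control as blue squares on the right of each pair (bars means, lines SDs, 3 arrays each). The 18 genes on the left have their miR-140-3p arrays below the control arrays and MIR376B, LIN28B-AS1 and NT5DC2 above them.

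Only 3 genes rose at the adjusted p. NT5DC2, a 5′-nucleotidase domain protein, had 13.66, 12.98 and 13.25 with miR-140-3p and 11.64, 11.89 and 12.26 in the control and rose by 1.36 (SE 0.21, adjusted p = 0.0138 from limma). It is the brightest of the 3, and its sets did not overlap. LIN28B-AS1, an RNA antisense to the stem cell factor gene LIN28B, had 6.12, 6.30 and 5.74 with miR-140-3p and 5.01, 5.10 and 4.98 in the control. MIR376B, a microRNA gene of the imprinted cluster at 14q32, had 6.42, 6.27 and 6.25 with miR-140-3p and 5.52, 5.40 and 5.19 in the control. Neither of these dimmer rows overlapped between the sets, but LIN28B-AS1 lost its call under 13 of the 17 alternatives that tested it (adjusted p of at most 0.225) and MIR376B under 13 of 18 (at most 0.244), and NT5DC2 lost it under 5, without miR-140-3p replicate 1 or 3 or control replicate 2, in a fit of only the 2 sets and when each row of the table was tested.

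Below that threshold, and bright enough to be read, the next higher genes were single genes of separate pathways. SLC6A17, a vesicular transporter of neutral amino acids in neurons, had 10.07, 9.50 and 9.52 with miR-140-3p and 8.45, 8.80 and 8.80 in the control (difference 1.01, SE 0.19, adjusted p = 0.0637 from limma). The iron-regulatory protein ACO1, an aconitase when iron is plentiful, had 11.99, 11.75 and 12.09 with miR-140-3p and 11.35, 10.67 and 11.09 in the control (difference 0.90, adjusted p = 0.13). ALG6, a glucosyltransferase of protein glycosylation, had 7.34, 6.88 and 6.62 with miR-140-3p and 5.50, 6.18 and 6.22 in the control (difference 0.98, adjusted p = 0.249). In all 3 the arrays were separated by set without passing the adjusted p. FMO1, a drug-oxidizing enzyme (1.00), the homeobox gene PKNOX2 (0.89) and TMEM220 (0.91) were alike. On the lower side PRRG4, a membrane protein with a vitamin K-dependent domain, had the greatest such difference outside the interferon lists, -1.40 (SE 0.32, adjusted p = 0.175).

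Among pathways outside the interferon response, the integrated stress response stood lowest by its median. This response, run by the factor ATF4, raises genes for amino acid synthesis and transport when amino acids are short or proteins misfold. Of 25 measured genes 9 were lower at the unadjusted thresholds, against 5.16% of all rows, and none was higher; 22 of the 25 had a difference below 0, the median was -0.324, and 0 passed the adjusted p. The count was 4 without control replicate 3. PHGDH, the entry enzyme of serine synthesis, had 7.33, 6.82 and 7.39 with miR-140-3p and 7.40, 8.16 and 8.62 in the control (difference -0.88, SE 0.30, adjusted p = 0.438 from limma). DDIT3, the factor CHOP, had 8.70, 8.06 and 8.30 with miR-140-3p and 9.40, 8.81 and 9.30 in the control (difference -0.81, adjusted p = 0.393). The sets of both genes were separated, by a small margin in PHGDH. ALDH1L2, the mitochondrial enzyme of folate metabolism, had 9.78, 10.18 and 10.12 with miR-140-3p and 10.76, 10.65 and 11.01 in the control (difference -0.78, SE 0.18, adjusted p = 0.165).

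Other members past the unadjusted thresholds had smaller differences. PSAT1, the enzyme of serine synthesis after PHGDH, differed by -0.62, CBS, of cysteine synthesis, by -0.60, and ASNS, asparagine synthetase, by -0.44. The pseudokinase TRIB3 differed by -0.75 and NUPR1, a bright chromatin protein of the stress response, by -0.44. ATF4 itself had 14.09, 13.67 and 13.99 with miR-140-3p and 13.86, 13.93 and 14.14 in the control, with overlapping sets and a difference of -0.06. CHAC1 (-0.01), PPP1R15A (0.08) and CTH (0.22), also ATF4 targets, passed no threshold. Averaged over the 25 genes, the miR-140-3p arrays stood at 9.65, 9.26 and 9.41 and the control arrays at 9.60, 9.73 and 9.94, so that as a list the sets overlap through miR-140-3p replicate 1 and control replicate 1.

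**Figure D4:**
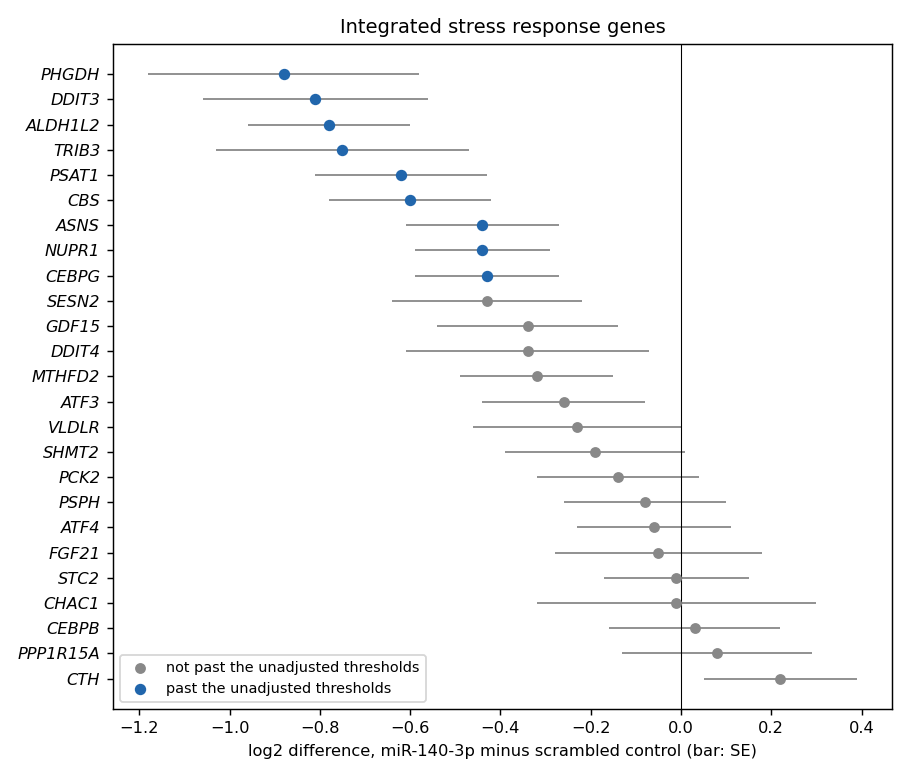
Log2 difference, miR-140-3p minus scrambled control, of the 25 measured genes of the integrated stress response, with SE as bars. Blue dots are the 9 genes past the unadjusted thresholds, from PHGDH at -0.88 to CEBPG at -0.43, and grey dots the others; none passed the adjusted p.

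The aminoacyl-tRNA synthetases, enzymes that load amino acids onto transfer RNA and partly ATF4 targets, had 3 of 18 lower and a median of -0.244. WARS1, the tryptophan enzyme, which interferon also induces, had 14.57, 14.48 and 14.66 with miR-140-3p and 15.23, 15.68 and 15.65 in the control (difference -0.95, SE 0.18, adjusted p = 0.0645 from limma). AARS1 and FARSA each differed by -0.49. The count of 3 became 6 without miR-140-3p replicate 1 and 1 without replicate 2. Amino acid transporters were split, 2 of 24 lower and 2 higher, SLC6A17 among the higher ones, with 6 and 1 without control replicate 1, 4 and 1 without miR-140-3p replicate 1, and 1 and 3 without miR-140-3p replicate 2. Chaperones of the endoplasmic reticulum (1 of 20 lower, median -0.125), cytosolic heat shock genes (1 of 13 lower, median 0.073) and p53 targets (1 of 21 lower, median -0.063) had 1 lower member each, beside 5.16% of all rows, with 3 chaperones and 3 p53 targets without miR-140-3p replicate 1.

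The study's flow cytometry concerned apoptosis, so the death genes were looked at by role. Of the genes described with the interferon lists, the ligand TNFSF10 fell, and so did XAF1, which binds XIAP and was named here after its values were seen. XAF1 had 10.23, 8.96 and 10.06 with miR-140-3p and 13.14, 13.18 and 13.69 in the control (difference -3.59, SE 0.57, adjusted p = 0.018 from limma), a call lost under 8 of 18 alternatives, among them without control replicate 2 or 3 or any 1 of the miR-140-3p arrays (adjusted p of up to 0.134). Of 15 other genes of death receptor signalling, 3 were lower and 1 higher, against 5.16% and 3.35% of all rows. Of these genes 0 passed the adjusted p, with 1 lower without miR-140-3p replicate 2 and 3 higher without control replicate 3. CASP10, an initiator caspase of that route, had 6.71, 6.34 and 6.53 with miR-140-3p and 7.13, 7.68 and 7.67 in the control (difference -0.97, SE 0.19, adjusted p = 0.0798 from limma). TNFRSF10D, a decoy receptor that binds TRAIL without killing, had 9.01, 8.14 and 8.53 with miR-140-3p and 8.08, 7.39 and 7.97 in the control (difference 0.75, adjusted p = 0.409). In both genes the sets were separated, in opposite directions. Of 15 BCL2 family genes 1 was lower, PMAIP1, the pro-apoptotic NOXA (-0.54, adjusted p = 0.499), and BCL2 itself differed by -0.01. Of 13 executioner caspase and apoptosome genes 1 was lower, the caspase inhibitor XIAP (-0.44, adjusted p = 0.532). NF-kappa B and inflammatory targets had 1 of 27 lower, the adhesion molecule VCAM1, and 1 higher, IER3, with a median of -0.028.

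The lysosomal list held 4 of 22 lower genes, beside 5.16% of all rows, and a median of -0.055. All 4 had separated sets, a separation found downward in 7.48% of all rows. CD68, a lysosomal membrane protein, had 12.24, 11.93 and 12.20 with miR-140-3p and 12.79, 12.98 and 13.26 in the control (difference -0.89, SE 0.18, adjusted p = 0.0859 from limma). SCARB2, the receptor that carries glucocerebrosidase, differed by -0.85, CTSS, the cathepsin that trims MHC class II, by -0.84, and the acid lipase LIPA by -0.66, and none of them passed. CD68 is also a macrophage marker. Among 7 markers of microglia and leukocytes none was lower, and PTPRC and AIF1, which define those cells, had 5.31 to 5.67 and 3.98 to 4.32 with miR-140-3p and 4.81 to 5.68 and 4.14 to 4.59 in the control.

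Growth and metabolism gave mostly background counts. In the cell cycle list 2 of 38 genes were lower and 2 higher, with CCNA2, cyclin A2, at 7.45, 6.80 and 7.59 with miR-140-3p and 6.37, 6.56 and 6.80 in the control (difference 0.70, adjusted p = 0.387 from limma) and the spindle protein TPX2 at -0.52. Without miR-140-3p replicate 1 the lower count of this list was 4, and without replicate 2 the higher count was 4. Among 33 DNA replication genes 1 was lower and 1 higher, RRM1, a subunit of ribonucleotide reductase (0.63, adjusted p = 0.29). Replication-dependent histone genes had 9 of 65 lower, beside 5.16% of all rows, none higher and a median of -0.198. But the 9 became 14 without miR-140-3p replicate 1 or control replicate 1, and 4 and 3 without miR-140-3p replicate 2 and control replicate 3. Mitochondrial ribosomal proteins had 8 of 75 lower, 5 without miR-140-3p replicate 2 and 3 without miR-140-3p replicate 3 or control replicate 3. Cytosolic ribosomal proteins had 1 of 56 lower, glycolysis 1 of 24, nuclear respiratory chain subunits 5 of 67 (1 without miR-140-3p replicate 2 or control replicate 3) and cholesterol synthesis and uptake 1 of 26. Leaving out control replicate 2 gave 4 cytosolic ribosomal proteins, and leaving out miR-140-3p replicate 3 gave 4 cholesterol genes.

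Among large gene families the zinc finger genes named ZNF, mostly repressors of transcription, had 51 of 531 lower and 1 higher, against 5.16% and 3.35% of all rows. Of the 531, 427 lay above the median row, and of protein-coding genes as a whole 6.35% were lower and 2.29% higher. The median of the ZNF genes was -0.133, and none of these passed the adjusted p. The lowest p among them belonged to ZNF131 (difference -0.70, adjusted p = 0.229 from limma), ZNF564 (-0.71) and ZNF441 (-0.67). The count was 30 without control replicate 3. C/D box small nucleolar RNAs, which guide methylation of ribosomal RNA, had 16 of 150 lower and 3 higher, and 6 lower and 5 higher after quantile normalization again, so their balance depends on the scaling, while the H/ACA class had 2 of 74 each way (6 higher without control replicate 2). MicroRNA genes, of which 531 lay above the median row, had 91 of 1492 higher and 50 lower, against 3.35% and 5.16% of all rows. Most of them are thus dim, and among all rows dimmer than the median 779 were higher and 678 lower.

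Within the microRNA genes, the imprinted cluster at 14q32 that holds MIR376B had 6 of 55 members higher and 2 lower, against 3.35% and 5.16% of all rows. Its median was 0.196, beside 0.032 for all microRNA genes. MIR412 had 4.48, 4.78 and 4.12 with miR-140-3p and 4.02, 3.86 and 3.48 in the control (difference 0.67, adjusted p = 0.407 from limma), and MIR758 and MIR654 differed by 0.57 and 0.50. Sets were separated in these 3, which are dim or of middling level. MIR370, in the same region, differed by -0.52. The genes of the cluster lie close together and are not independent.

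**Figure D5:**
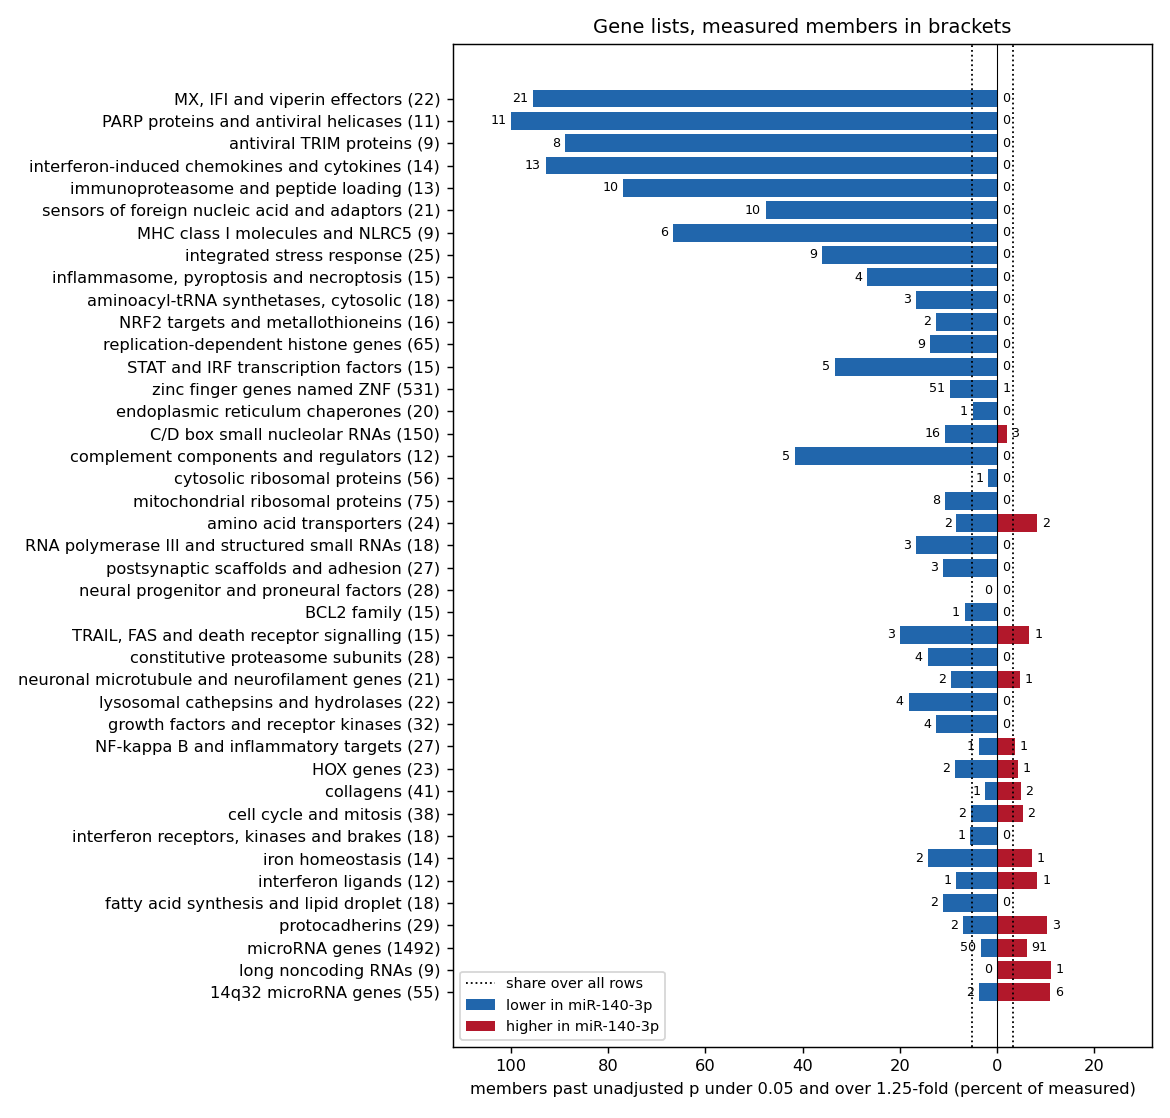
Percent of the measured members of each gene list (number in brackets) that were lower (blue, to the left) or higher (red, to the right) with miR-140-3p at the unadjusted thresholds, sorted by median difference, with counts at the bar ends. Dotted lines are the shares over all rows, 5.16% lower and 3.35% higher; several interferon lists reach furthest left. Shown are lists of 9 or more measured members, those that stand out and others chosen beside them.

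Since the study also followed differentiation of these cells, neuronal genes were read list by list. None of 28 neural progenitor and proneural factors passed any threshold (median -0.073). In the microtubule and neurofilament list 2 of 21 were lower and 1 higher. MAP2, of dendrites, had 8.79, 8.49 and 9.04 with miR-140-3p and 9.21, 9.49 and 9.61 in the control (difference -0.67, adjusted p = 0.326 from limma), whereas NEFM, the medium neurofilament, had 13.77, 13.15 and 13.30 with miR-140-3p and 13.27, 12.61 and 12.75 in the control, with overlapping sets (difference 0.53, adjusted p = 0.533). Synaptic vesicle and release genes had 1 of 25 lower and none higher. Among 27 postsynaptic scaffold and adhesion genes 3 were lower, GRIP2 with its fall, AGRN, the proteoglycan agrin that gathers acetylcholine receptors (-0.85, adjusted p = 0.229), and SLITRK6, a synaptic adhesion protein, and the 3 became 5 without control replicate 1. Axon guidance genes were 5 of 65 lower and 2 higher, with 9 lower without control replicate 1 and 3 without control replicate 3, and EPHA7, an ephrin receptor, at 7.43, 7.40 and 7.72 with miR-140-3p and 7.99, 8.13 and 8.68 in the control (difference -0.75, adjusted p = 0.302).

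Receptors and channels that give neurons their signals were near the background in both directions. Among 41 glutamate and GABA receptor genes 2 were lower and 2 higher, with GABRA4 at -0.87 (adjusted p = 0.282 from limma) and GABRG3, another GABA receptor subunit, at 0.60, both with separated sets. Of 82 voltage-gated and related channel genes 1 was lower and 2 higher. Without control replicate 1 the receptors gave 4 lower and 0 higher and the channels 4 lower and 3 higher, and without control replicate 2 the channels gave 1 lower and 4 higher. Immediate early genes gave 2 of 25 lower and 1 higher, and EGR1, an activity-dependent factor, had 18.52, 17.93 and 17.99 with miR-140-3p and 17.22, 18.04 and 18.10 in the control, with overlapping sets. In the microRNA pathway 1 of 19 genes was higher, AGO1, an Argonaute protein (0.41, adjusted p = 0.526).

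Matrix, adhesion and growth factor genes gave no call. Of 41 collagens 1 was lower and 2 higher (median -0.012), of 31 integrins and laminins 2 were lower, and of 26 TGF-beta ligands, receptors and SMADs 1 was higher, or 3 without control replicate 3, the co-receptor TGFBR3 (0.45, adjusted p = 0.532 from limma) being the 1. Among 32 growth factors and receptor kinases 4 were lower, with 1 without control replicate 3, 2 without miR-140-3p replicate 2 and 7 without control replicate 2. PTN, the neurite growth factor pleiotrophin, had 10.50, 10.62 and 10.66 with miR-140-3p and 11.23, 11.33 and 11.73 in the control, separated by set (difference -0.83, SE 0.17, adjusted p = 0.104).

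The microRNA's own gene and the targets reported for it in other cells came last. MIR140, whose row measures the hairpin and not the transfected mimic, had 4.17, 3.95 and 4.08 with miR-140-3p and 3.88, 4.33 and 3.91 in the control, and its host gene WWP2, a ubiquitin ligase, differed by -0.24 (adjusted p = 0.772 from limma). The arrays therefore give no measure of how much mimic the cells held. Of 8 reported targets, 2 were lower at the unadjusted thresholds, but 0 after quantile normalization again and 0 without miR-140-3p replicate 3 or control replicate 1 or 3. CD38, an enzyme that consumes NAD, had 6.45, 6.24 and 6.31 with miR-140-3p and 6.73, 6.50 and 7.14 in the control (difference -0.46, SE 0.20, adjusted p = 0.549). MYO6, a motor that moves toward the minus end of actin, had 10.28, 10.37 and 10.13 with miR-140-3p and 10.60, 10.68 and 10.60 in the control (difference -0.37, SE 0.16, adjusted p = 0.552). Their sets were separated by small margins. ADAM10, a shedding protease, differed by -0.31 with separated sets, and NRIP1, BCL9, BCL2, ATP8A1 and ATP6AP2 differed by -0.12 to 0.07.

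Set beside the miR-126-5p arrays, which were compared with the same control arrays, no row differed at the adjusted p between the 2 mimics, 0 of 36176 (0.0%), while 3279 rows had an unadjusted p under 0.05. Against those control arrays the median of the OAS and RNase L list was -5.320 with miR-126-5p and -4.476 with miR-140-3p. In the same order, the ISG15 list stood at -4.239 and -3.816, and the MX, IFI and viperin list at -2.989 and -2.437. The guanylate-binding proteins stood at -0.900 and -0.967. These falls were thus not particular to miR-140-3p, though both differences share the control arrays. LIN28B-AS1 averaged 6.05 on the miR-140-3p arrays and 5.33 with miR-126-5p (difference 0.72, adjusted p = 0.427 from limma). MIR376B had means of 6.31 on the miR-140-3p arrays and 5.71 with miR-126-5p (difference 0.60, adjusted p = 0.456), and SLC6A17 of 9.70 on the miR-140-3p arrays and 9.03 with miR-126-5p (difference 0.67, adjusted p = 0.456). None of the 3 passed the adjusted p of the direct comparison. For NT5DC2 the means were 13.30 on the miR-140-3p arrays and 12.98 with miR-126-5p (difference 0.32, adjusted p = 0.674), and for MASTL 6.58 on the miR-140-3p arrays and 7.12 with miR-126-5p (difference -0.55, adjusted p = 0.459).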

How the data were processed

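Total RNA of HCN-2 cells was hybridized to Affymetrix arrays. The authors deposited 1 table of log2 values, a column per array, and RMA, Partek and the Affymetrix Expression Console are listed, with no version, in the processing notes of the submitters. RMA corrects background and quantile-normalizes the arrays, which would remove a shift shared by most genes. The values carry no detection call or count depth, and the highest, 19.93, is above the log2 range of a 16-bit scan, so a rescaling is not stated. The methods and the deposited description name different Clariom chips. Of 138745 rows, 2995 control rows were left out, 1119 with several symbols and 98455 not listed in the annotation were not named or tested in the main fit, and 25516 rows matched RefSeq by Entrez identifier. The row with the highest mean over the arrays stands for its gene. Sets came from the labels.

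Differences were tested with limma 3.58.1 (R 4.3.3; lmFit and eBayes, two-sided), the 9 arrays in 1 fit without a block (6 residual and 6.32 prior degrees of freedom), with Benjamini-Hochberg adjustment over 36176 rows, after a check on simulated data. Named genes were the rises and the 10 deepest falls at the adjusted p, all such genes outside the interferon lists, up to 6 per list (otherwise the 3 with the lowest p), the 10 greatest differences each way outside those lists with separated sets above the median level, and the targets and markers. Other members were named to show the range of a list, after their values were seen. The lists were written from general knowledge, and the members and lists were chosen with earlier results of these data and the study's supplementary gene list known, so their counts are no independent evidence. Promoters and microRNA sequences are from RefSeq, GRCh38.p14. Alternatives changed the fit, the scaling, the rows tested and the arrays.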

Additional observations from a re-analysis of the deposited data

How the results depend on the processing

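The direction of the 84 genes past the adjusted p turned under 0 of the alternatives, but their number moved. Lower rows at the adjusted p numbered 83, with a range of 45 to 119 when 1 array was left out, and rows higher 3, with a range of 0 to 5. Without moderation of the variance both counts were 0, with 801 higher rows at the unadjusted thresholds instead of 1213. The higher rows at the adjusted p were 0 with 2 groups per fit, 1 with array weights, 5 with an intensity trend and robust estimation, 5 after quantile normalization again and 7 among rows above the median level, where 475 were higher at the unadjusted thresholds. Over all 135750 rows that are not controls, 4639 were lower and 5681 higher at the unadjusted thresholds, and quantile normalization again gave 1611 lower and 1563 higher, so the excess of lower rows rests on the rows and scaling used. The replicate block gave 76 lower and 1 higher at the adjusted p. Deviations of same-numbered arrays of the 2 sets from their set means correlated at -0.061, 0.107 and 0.029, so no strong shared deviation was seen. Whether the numbers pair the arrays is not stated, and these values cannot decide it. Of the 84 genes, 36 kept their call in each of the 18 moderated alternatives that tested their row, 32 in interferon lists and 4 in none. Each of the 84 that has several rows passed on only 1 of them. With the rows of a gene averaged, 79 of the 84 kept their call, and DDX60L, LAP3, TNFSF13B, TRIM69 and ZNFX1 lost it. Signs turned in genes with no call: MIR140 (0.03) was at -0.01 with array weights and between -0.06 and 0.17 when 1 array was left out (-0.03 without miR-140-3p replicate 1 and -0.04 without control replicate 3), CLDN4 between -0.01 and 0.43, OLIG2 between -0.24 and 0.01, and PTPN2 at 0.27 and SNORA43 at -0.01 with the rows of a gene averaged. The causes were not tested. With 3 arrays per set and no detection call, differences of dim rows are the least certain.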
